A study of Drosophila melanogaster with 58 samples.

Results

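Whole Drosophila embryos that expressed gcm ectopically were compared with wild type at embryonic stage 13 on 4 arrays, chosen by their titles from the 58 arrays of the series. The ectopic embryos came from the cross of the Gal4 line MZ1060 to B5446, which carries gcm under UAS control, the sequence that Gal4 activates. Their wild type was a pool of equal amounts of mRNA from stage 13 embryos of MZ1060 and of B5446, so the control held the driver and the transgene, each in separate embryos. All were laid at 25 °C and aged at 29 °C according to the sample labels (the series text names 29 °C and 18 °C). The cells in which MZ1060 is active are not given in the sources used here. The ectopic sample carried the dye Cy3 on replicates 1 and 2 and Cy5 on replicates 3 and 4. Arrays of the same design covered ectopic stages 9 to 16 (33 arrays) and gcm mutants at stages 10 to 14 and 16 (25 arrays). The mutants were homozygous for gcmN7-4, were picked at stage 13 by their lack of the GFP of a Kr-GFP balancer, and were set against OregonR embryos.

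The gene gcm encodes the zinc-finger transcription factor glial cells missing. In the fly embryo it switches neural precursors from neuronal to glial fate, and together with its paralog gcm2 it acts in blood cells and tendon cells. Among the genes known to respond to it in glia are repo, which encodes a homeodomain protein that maintains glial differentiation, and loco, whose product tunes G protein signals. By stage 13 a wild-type embryo has passed germ band retraction and has long replaced the RNA that the mother loaded into the egg.

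Each array gave ratios of both dyes without intensities, so a gene's level in either sample is unknown and its markers could not be checked as present or absent. On the 4 arrays, 21786 to 22718 of the 23808 probes had a value, and the repeat spots of a probe correlated at a Spearman rho of 0.337 to 0.393. Across probes the arrays resembled each other little. Replicates 3 and 4 correlated at a rho of 0.228, whereas replicates 1 and 2, also of one dye orientation, correlated at -0.056. The pairs of opposite orientation lay between -0.000766 and 0.159. Replicates 1 and 2 also stood apart in the 36 ribosomal protein genes, whose median log2 ratio was -0.75 and 0.80 on them, against -0.15 and 0.07 on replicates 3 and 4.

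The targeted gene was read first. Transcript of gcm had log2 ratios of ectopic over pooled wild type of 1.09, 2.34, 2.09 and 1.87 on replicates 1 to 4. All 4 arrays were above 0, with replicate 1 the lowest. The mean was 1.85 ± 0.54 (SD, n = 4), a 3.6-fold rise, and it passed the limma-moderated test across all probes (SE 0.29, adjusted p = 7.4e-05). In gcm mutants at the same stage the log2 ratio was -0.13, -1.35, -0.93 and -0.11, below 0 on 4 of 4 arrays without passing (-0.63, adjusted p = 0.181). Ectopic gcm minus gcm mutant was 2.48 on the log2 scale and passed (adjusted p = 0.000462). The paralog gcm2 had ratios of 0.14, -0.78, -0.55 and -0.11 in ectopic embryos, spread on both sides of 0, and did not pass (-0.33, adjusted p = 0.914).

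At stage 13, 713 of 22631 tested probes passed at an adjusted p under 0.05 (3.15% of the probes), of which 582 were higher with ectopic gcm (2.57%) and 131 were lower (0.579%). Of 11359 named genes, 547 passed (4.82%), of which 475 rose (4.18%) and 72 fell (0.634%). The higher calls were mostly moderate, with 314 probes at 2-fold or more and 31 at 4-fold or more. Fewer lower calls were made, but they were larger, with 101 at 2-fold or more and 40 at 4-fold or more. The directions also differed in how far the arrays shared them. Among higher calls measured on all 4 arrays, 95.2% had 1 sign on all 4, and a single array made up over 50% of the summed size in 10.2% of them. For lower calls these shares were 75% and 32.8%, and for all tested probes 18.9% and 41%. Calls were chosen by their fitted ratio over these same arrays, which favours a shared sign, so this comparison is no test of agreement. Replicate 2 held the highest value in 387 of the 578 higher calls.

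**Figure D1:**
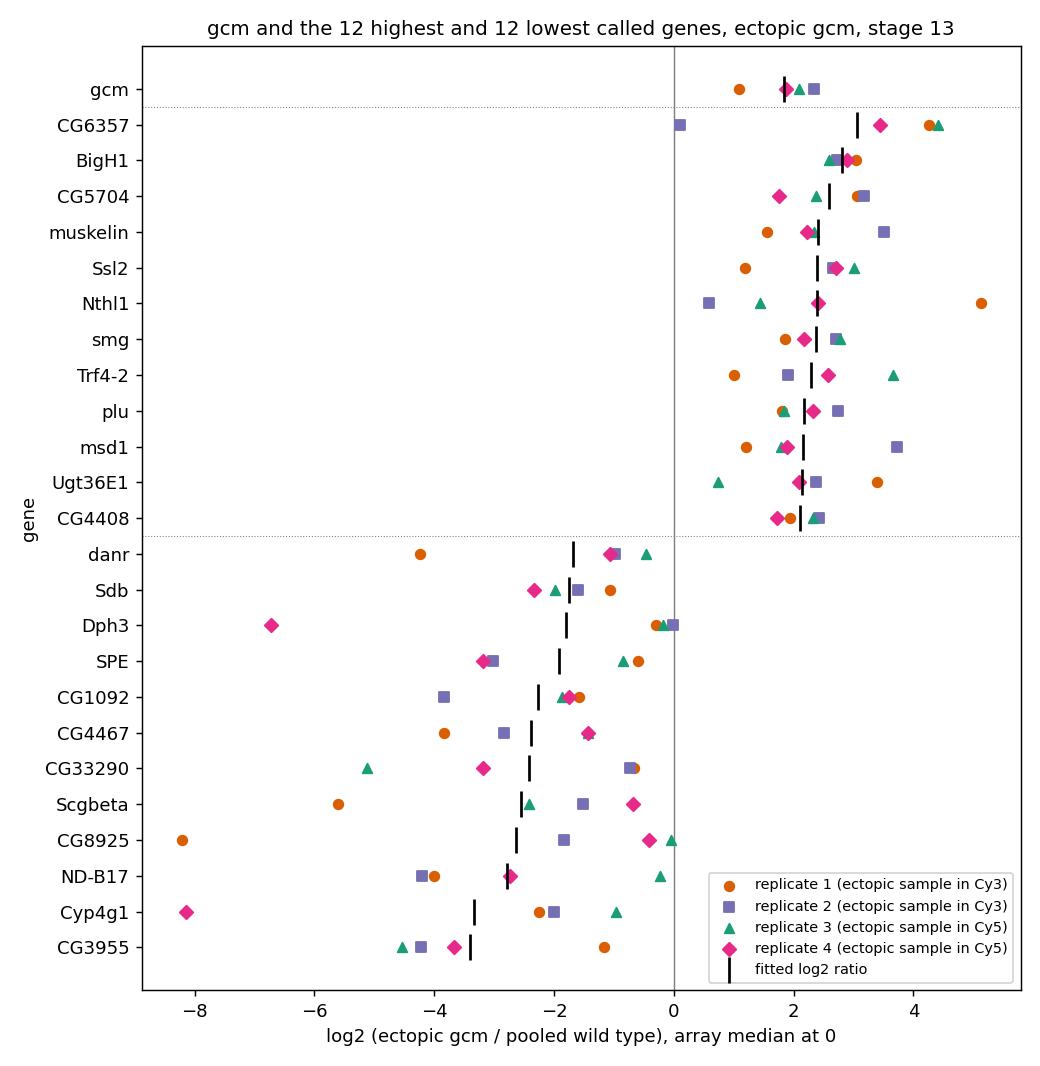
Log2 ratio of ectopic gcm over pooled wild type (x axis) on each of the 4 stage 13 arrays for gcm, the 12 highest and the 12 lowest called genes with 1 sign on all 4 arrays (y axis). Symbols are arrays and black ticks are fitted ratios. BigH1 and smg sit close together on all arrays, whereas Cyp4g1 reaches -8.13 and Dph3 -6.72 on replicate 4 alone.

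The call count depended on single arrays. Without replicate 1 it was 786 probes, without replicate 2 or replicate 3 it was 346 each, and without replicate 4 it was 511. Of the 582 higher probes, 160 kept their call in all 4 of these fits, and of the 131 lower probes 3 did. In named genes this left 133 of 475 risen genes and 0 of 72 fallen genes. The counts also rest on shared estimates: with arrays left uncentred 22 probes passed, all higher, and with a spread estimated from the 4 stage 13 arrays alone 0 passed, with the size of the gcm difference almost the same in both (1.89 and 1.85).

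**Figure D2:**
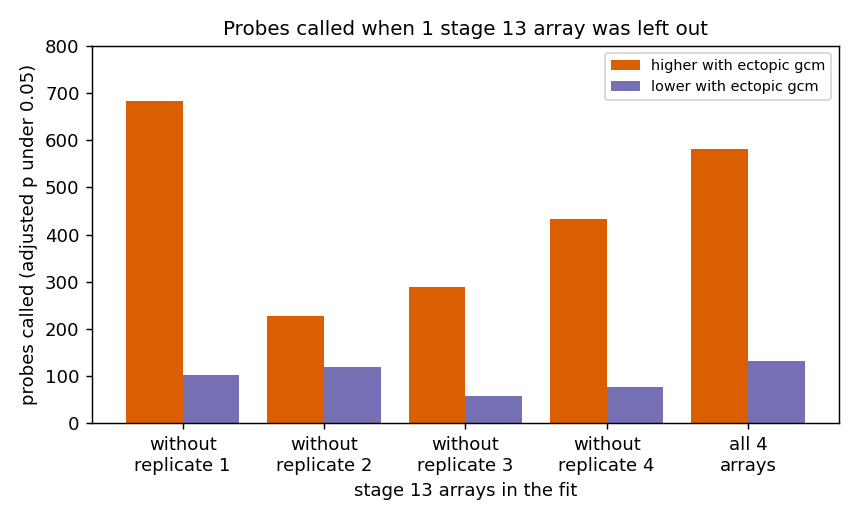
Number of probes called (y axis) higher or lower with ectopic gcm at stage 13, with 1 of the 4 arrays left out or with all 4. Higher calls numbered 227 without replicate 2 and 684 without replicate 1, against 582 with all arrays, and lower calls ranged from 58 to 131.

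The 12 highest genes were taken from called genes above 0 on all 4 arrays, and included BigH1, smg, plu and msd1. BigH1 encodes the linker histone that packs chromatin before the somatic histone H1 appears. Its log2 ratios were 3.05, 2.72, 2.59 and 2.89, the closest agreement between arrays among the 12 leading genes (mean 2.81 ± 0.20, SD, n = 4). That is a 7.02-fold rise with an adjusted p of 0.000191. The RNA-binding protein gene smg, whose product Smaug represses and destroys maternal mRNA, had ratios of 1.86, 2.71, 2.78 and 2.17. It rose 5.2-fold with the smallest adjusted p among the 12 (2.44e-08), and its lowest array was at 1.86. The gene plu encodes a subunit of the PAN GU kinase that sets the cell cycle of the early embryo, and msd1 encodes a subunit of the spindle complex augmin. Ratios of plu were 1.81, 2.74, 1.84 and 2.33 (adjusted p = 0.00812), and those of msd1 were 1.21, 3.72, 1.79 and 1.88 (adjusted p = 0.000134). Replicate 2 was the highest for both.

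The other genes among the 12 varied in how even they were. Trf4-2, which encodes a noncanonical poly(A) polymerase, had ratios of 1.01, 1.91, 3.66 and 2.57 (adjusted p = 0.000124). The gene muskelin, whose product belongs to the CTLH ubiquitin ligase, had 1.56, 3.52, 2.34 and 2.22 (adjusted p = 7.31e-06). CG6357 had the highest fitted ratio of the 12 (3.06), from 4.27, 0.11, 4.41 and 3.44. Its replicate 2 was near 0, its adjusted p was 0.0257, and it kept its call in 1 of the 4 fits that left out an array. Nthl1, which encodes a DNA glycosylase of base excision repair, had ratios of 5.12, 0.58, 1.43 and 2.41 and was lifted most by replicate 1. CG5704 had 3.05, 3.17, 2.38 and 1.76 and CG4408 had 1.94, 2.42, 2.33 and 1.72, all 4 arrays high in both. Of the 12 genes, 7 kept their call whichever array was left out.

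Lists of maternal and early embryonic genes held more risen genes than the 4.18% of all named genes, and 0 fallen ones. In the list for egg activation and maternal RNA clearance, 5 of 15 tested members rose and the median log2 ratio was 0.55, against 0.0005 over all named genes. Besides BigH1, smg and plu they were Marf1, an RNA-binding protein needed in oocyte meiosis, and CycB3, a mitotic cyclin. Marf1 had ratios of 0.93, 1.52, 2.74 and 3.15 (adjusted p = 0.00684), and CycB3 had 1.33, 2.31, 1.44 and 1.03 (adjusted p = 0.000349). Every array was above 0 for both, with replicates 3 and 4 the highest for Marf1 and replicate 2 for CycB3. Other members did not pass, among them png, the kinase subunit of the same complex as plu, at -0.86 (adjusted p = 0.402).

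Of 26 maternal axis genes, 5 rose. The list median was 0.10, and without replicate 1, 2, 3 or 4 it was 0.34, 0.19, 0.28 or 0.20. Apart from smg they were swa, which places bicoid mRNA in the oocyte, and Tl, pll and cact, which encode the receptor, the kinase and the inhibitor of the Toll pathway. Log2 ratios of swa were 1.23, 2.25, 2.17 and 2.24 (adjusted p = 2.54e-06), with replicate 1 below the other arrays. For pll they were 0.82, 1.64, 2.34 and 1.15 (adjusted p = 0.000272) and for cact 0.58, 2.03, 1.42 and 1.16 (adjusted p = 0.000154). All arrays were above 0 in these genes, and replicate 1 was the lowest each time. Ligand and other early members of the Toll pathway did not pass, with spz at -0.10 and ea at -0.21. The posterior determinant osk was at 1.45 with an adjusted p of 0.287.

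The piRNA pathway silences transposons in the germ line through small RNAs. Of its 22 tested genes 4 rose, and the list had the highest median of the 26 lists (0.91). The Tudor protein gene SoYb had ratios of 2.25, 2.15, 2.04 and 1.71 (adjusted p = 0.00449), and mael had 1.46, 2.22, 2.38 and 1.72 (adjusted p = 3.47e-05). Both were high on every array. The genes squ (1.41, adjusted p = 0.0102) and mino (0.92, adjusted p = 0.0484) also rose, each kept in 1 of the 4 fits without an array. The list count was 2 without replicate 2 or replicate 3. The Argonaute gene aub, at 0.97, lay just outside with an adjusted p of 0.0567, and piwi was at 0.89 with 0.652.

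Cell cycle and replication genes rose in part, in 23.8% and 22.2% of the tested members, against 4.18% of all named genes. Of 21 cell cycle genes 5 rose (median 0.30): twe, the meiotic Cdc25 phosphatase; CycB and CycB3, mitotic cyclins; thr, a separase component; and pim, the securin that holds separase. Ratios of CycB were 0.68, 2.0, 2.16 and 2.34 (adjusted p = 8.68e-05), those of twe 1.43, 2.72, 1.95 and 1.25 (adjusted p = 0.000114) and those of thr 1.33, 1.78, 1.87 and 1.53 (adjusted p = 0.000124). All were above 0, and only CycB had 1 array, replicate 1, far below the rest. Of 18 replication genes 4 rose, and they act when replication origins are licensed and fired. The list median was 0.22, or 0.57 without replicate 1, on which it was -0.62. Orc1, a subunit of the origin recognition complex, had 2.02, 1.36, 1.69 and 1.81 (adjusted p = 2.63e-08). Its partners Cdc6, with 1.63, 1.60, 1.55 and 1.14, and dup, the Cdt1 homologue, with 1.02, 1.68, 1.43 and 1.26, were as even (adjusted p = 1.52e-05 and 0.0012). Psf1, a subunit of the GINS complex, passed at 0.88 (adjusted p = 0.0438). The helicase genes Mcm2, Mcm3 and Mcm5 did not pass, at 0.64, 0.22 and -0.41.

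Cellularisation encloses the nuclei of the early embryo in membranes. Of its 11 tested genes slam and kuk rose (18.2%, against 4.18% of all named genes). The furrow protein gene slam had 1.67, 2.21, 2.0 and 1.98 (adjusted p = 0.00166), and kuk, which encodes a nuclear envelope protein, had -0.04, 1.62, 1.03 and 0.87 (adjusted p = 0.0436). The zygotic members nullo (-0.61), halo (-0.73) and bnk (0.03) did not pass.

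**Figure D3:**
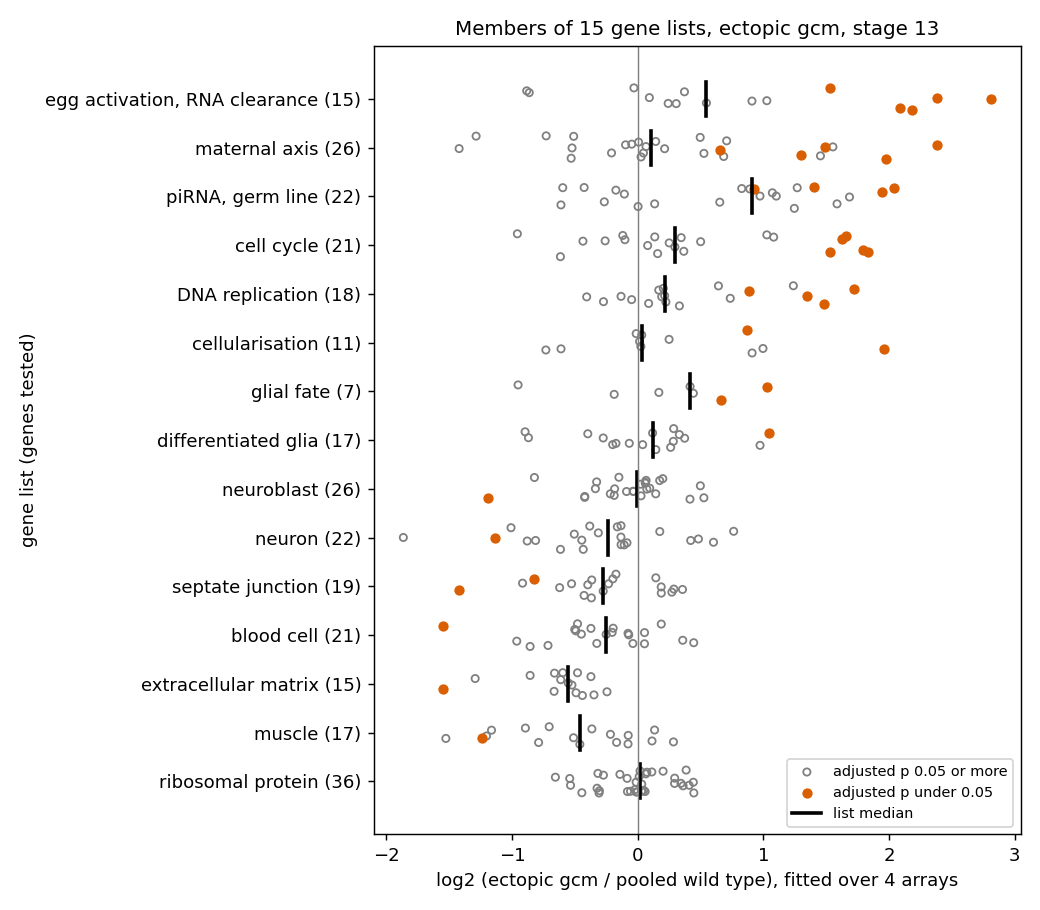
Fitted log2 ratio of ectopic gcm over pooled wild type at stage 13 (x axis) for the tested members of 15 gene lists (y axis, number tested in parentheses). Filled points passed, open points did not, and bars are list medians. Risen members lie in the maternal, piRNA, cell cycle, replication, cellularisation and both glial lists, and the 15 extracellular matrix genes all lie below 0 with 1 passing.

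In the list of glial fate and gcm cofactors, 2 of 7 tested genes rose, against 4.18% of all named genes, and 0 fell. The list median was 0.42, and 5 of the 7 had an unadjusted p under 0.05, against 16.8% of all named genes. Of these 5, 4 were higher and 1, Notum (-0.95), was lower. In gcm mutants at stage 13 the list median was 0.23, with 2 genes called higher and 0 lower. Of all named genes tested in both experiments, 7.91% were called higher in mutants and 5.35% lower. With ectopic gcm the 2 risen genes were retn and nej, the fly CBP acetyltransferase. The product of retn is a DNA-binding protein of the ARID family that acts in neurons and glia. Ratios of retn were 0.86, 1.15, 1.26 and 0.84, above 0 on all arrays (2.04-fold, adjusted p = 0.000451). Those of nej were 0.48, 0.32, 0.90 and 0.96 (1.59-fold, adjusted p = 0.0107). Without replicate 3, 1 of the 7 was called. The glial master gene repo had ratios of 0.22, 0.44, 0.84 and 0.27, positive on 4 of 4 arrays, and did not pass (0.44 ± 0.20 SE, adjusted p = 0.313). Likewise loco had 0.08, 0.81, 0.37 and 0.41 (0.42 ± 0.17 SE, adjusted p = 0.214). In whole embryos a change in the number of cells of a type and a change in RNA per cell cannot be told apart.

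Of 17 genes of differentiated glia 1 rose (5.88%, against 4.18% of all named genes), moody, a receptor of the blood-brain barrier glia. Its ratios were 0.51, 0.73, 2.53 and 0.41, so replicate 3 stood far above the other arrays (2.06-fold, adjusted p = 0.0239), and the call held in 2 of the 4 fits without an array. The glial genes nrv2 (-0.40), Gs2 (0.28) and wrapper (0.17) did not pass. The median of the differentiated glial list was 0.12. Without replicate 2 it was -0.003, with 0 genes called higher and 1 lower. Septate junctions seal epithelia and barrier glia, and 2 of their 19 genes fell (median -0.27), against 0.634% of all named genes. Without replicate 3 or replicate 4 0 of the 19 were called, and the median was -0.09 without replicate 1 and -0.65 without replicate 2. The claudin gene sinu had -0.78, 0.48, -2.03 and -0.98 (adjusted p = 0.0263), and bark, which encodes a large membrane protein of the tricellular junction, had -0.59, -0.30, -3.02 and -1.77 (adjusted p = 0.0253). Neither was even across arrays, and sinu was above 0 on replicate 2. All 7 innexin genes, which encode gap junction channels, had negative ratios (median -0.29), and 0 of them passed by limma. An unadjusted p under 0.05 was found for 1 of them, against 16.8% of all named genes. Without replicate 1 that median was -0.18, and likewise without replicate 3.

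Neural genes fell in 2 cases, 3.85% of the neuroblast and 4.55% of the neuronal list, against 0.634% of all named genes. From the neuroblast list of 26 genes, nerfin-1, a zinc-finger factor that keeps neurons differentiated, had -1.09, -0.85, -1.78 and -1.04 (2.28-fold lower, adjusted p = 0.0133). From the neuronal list of 22 genes, fne, a neuronal RNA-binding protein of the ELAV family, had -1.41, -0.84, -0.61 and -1.68 (2.2-fold lower, adjusted p = 0.0103). All 4 arrays were below 0 for both genes. Their calls held in 3 and 2 of the 4 fits without an array. The neuroblast list had a median of -0.01 and the neuronal list one of -0.24 (-0.13 without replicate 3). Of the 20 neuronal identity genes 0 passed by limma. At an unadjusted p under 0.05 there were also 0, against 16.8% of all named genes.

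Among matrix and blood cell genes 1 gene, in both lists, passed. All 15 genes of the extracellular matrix, which blood cells and fat body secrete, had negative log2 ratios (median -0.55). Of these, 8 had an unadjusted p under 0.05, all lower. Among all 11359 named genes tested, 642 were lower at that threshold. Only glutactin, Glt, passed, with 0.24, -1.98, -2.15 and -2.31 (2.93-fold lower, adjusted p = 0.0314), and replicate 1 was above 0. The collagen gene Col4a1 had -0.64, 0.07, -1.40 and -3.20 and lay just outside the threshold (adjusted p = 0.0768). The list median was -0.77, 0.08, -0.73 and -1.03 on replicates 1 to 4, so replicate 2 did not share the direction. Among 21 blood cell genes, Glt was the 1 that fell. An unadjusted p under 0.05 was found for 4, all lower, against 642 lower ones among all 11359 named genes tested. The blood cell median was -0.25, with -0.41, 0.06, -0.48 and -0.44 on replicates 1 to 4. It was -0.44 without replicate 2 and -0.13 without replicate 4. The call of Glt was lost in the fits without replicate 2, 3 or 4. The prophenol oxidase genes PPO1 (-0.96) and PPO2 (-0.71), products of crystal cells, and the plasmatocyte genes NimC4 (-0.20) and Hml (-0.50) did not pass.

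In the remaining lists 1 gene at most passed in a direction. Over all named genes 4.18% rose and 0.634% fell. Muscle tropomyosin Tm2 fell (-1.24, adjusted p = 0.0295) among 17 muscle genes, as did the tracheal and gap gene kni (-0.84, adjusted p = 0.0397) among 10 tracheal genes. In 17 ecdysone genes the receptor EcR rose (0.83, adjusted p = 0.00997) and the secreted ImpE2 fell (-1.49, adjusted p = 0.0104). The Notch pathway antagonist H (Hairless) rose (0.94, adjusted p = 0.00221) among 15 genes of that pathway. In the lists for midline (8 tested), tendon (10), Hox (4), apoptosis (6), heat shock (8), fat body and gut (13) and ribosomal protein genes (36), 0 passed by limma. At an unadjusted p under 0.05 there was 1 midline gene, 4 tendon genes (2 higher and 2 lower), 1 fat body or gut gene, 2 ribosomal protein genes and 0 genes of the other 3 lists. The share of all named genes at that threshold was 16.8%. Ribosomal proteins carried the opposite shifts of replicates 1 and 2, and their fitted median was 0.02, or 0.25 without replicate 1 and -0.33 without replicate 2. Across the lists, 16 of the 25 risen genes named by the rule stayed called whichever stage 13 array was left out, and 0 of the 8 fallen ones did.

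The largest falls, taken from called genes below 0 on all 4 arrays, rested on few arrays. CG3955 had ratios of -1.16, -4.22, -4.53 and -3.67 (adjusted p = 0.00247), low on 3 arrays. Cyp4g1, a cytochrome P450 that makes cuticular hydrocarbons in oenocytes, had -2.25, -1.99, -0.97 and -8.13 (adjusted p = 0.00652). Scgbeta, a sarcoglycan subunit, had -5.61, -1.51, -2.41 and -0.68, with replicate 1 lowest by far. ND-B17, a subunit of respiratory complex I, had -4.0, -4.20, -0.24 and -2.73, and SPE, the protease that activates Spätzle in immunity, had -0.59, -3.01, -0.85 and -3.19. Sdb was more even, with -1.06, -1.60, -1.98 and -2.33 (3.34-fold lower, adjusted p = 0.0105). The transcription factor gene danr had -4.24, -0.98, -0.46 and -1.07 (adjusted p = 0.00257). Of the 12 lowest genes 0 kept their call whichever array was left out, and each was called in 1 to 3 of the 4 fits. Among the genes next to the threshold, Vhl lay just inside at -0.78 (adjusted p = 0.0490) and CG13538 just outside at -3.05 on 3 arrays (adjusted p = 0.0504).

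Stage 13 was then set against its neighbours. With the stage 12 and 14 means subtracted, 0 of 18261 probes passed by limma (0%), and 979 had an unadjusted p under 0.05 (5.36%), 470 higher (2.57%) and 509 lower (2.79%). Closest to the threshold among named genes measured on every stage 13 array were CG8303, at -2.96 on the log2 scale (adjusted p = 0.0769), and the neuroblast gene wor, at 1.06 (adjusted p = 0.0925). In simulated data of the same design, 48 of 100 probes that differed by a log2 of 2 were recovered, and 12 of 100 at a log2 of 1. The simulated noise had the same spread on all arrays, unlike the real arrays. The genes called at stage 13 were followed across the other ectopic stages. Of the 475 risen genes, 212, 268, 252 and 231 were also called higher at stages 9, 10, 11 and 12, and 156, 74 and 19 at stages 14, 15 and 16. Of all named genes 6.49%, 5.31%, 4.01% and 3.1% were called higher at stages 9 to 12, and 1.78%, 0.759% and 0.227% at stages 14 to 16. Their median log2 ratio was 0.63, 0.82, 0.81 and 0.80 at stages 9 to 12, 1.03 at stage 13 where they were chosen, and 0.61, 0.62 and 0.38 at stages 14 to 16. The 72 fallen genes were called lower in 10 cases at stage 9, 1 each at stages 10 and 11, 0 at stage 12, 6 at stage 14 and 0 at stages 15 and 16. The shares of all named genes called lower were 6.33%, 1.66%, 0.57% and 0.192% at stages 9 to 12, and 0.545%, 0.0262% and 0.122% at stages 14 to 16.

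Single genes followed different courses over ectopic development. The log2 ratio of gcm was 0.13 at stage 9 and 0.92 at stage 10, where it did not pass. It passed at every later stage, with 1.12, 1.59, 1.85, 1.47, 1.88 and 1.80 at stages 11 to 16. The genes smg, swa, mael and Orc1 were called higher at all 8 stages, smg at 1.75 to 2.38. CycB was at 0.40 to 0.93 without passing at stages 9 to 12, and passed at stages 13 (1.79), 14 (1.29) and 15 (1.18). Of the glial genes, repo stayed between -0.17 and 0.58 and passed at 0 of 8 stages (limma). Among the fallen genes, nerfin-1 was also called lower at stages 9 (-1.10) and 14 (-1.09), and fne at stage 14 (-0.88).

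**Figure D4:**
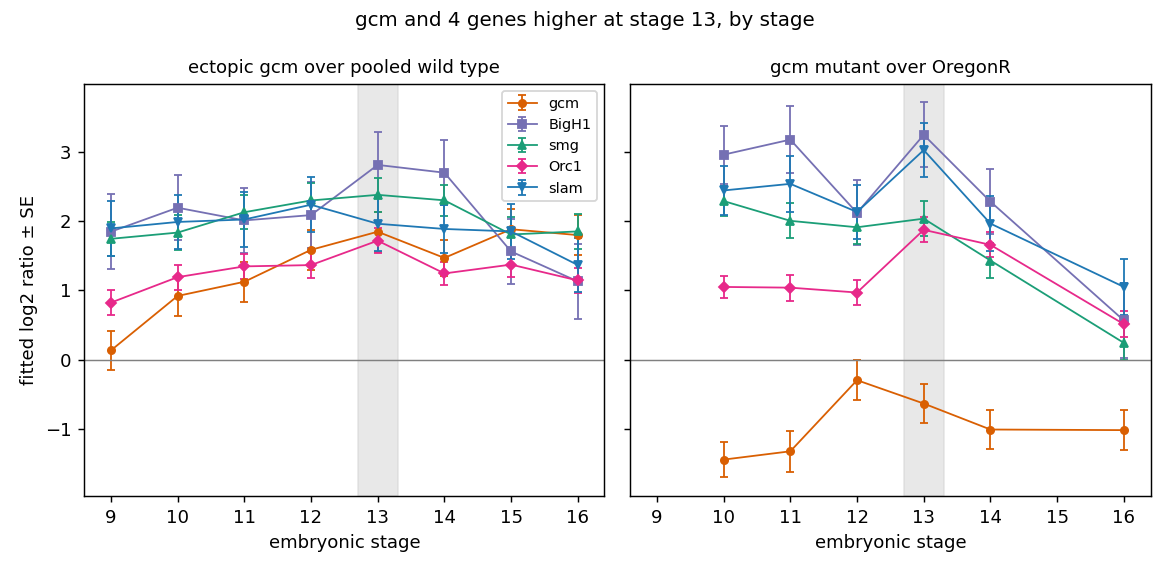
Fitted log2 ratio with its SE (y axis) of gcm, BigH1, smg, Orc1 and slam by embryonic stage (x axis), in ectopic embryos over pooled wild type and in gcm mutants over OregonR, with stage 13 shaded. At stage 13 BigH1, smg, Orc1 and slam are high in both experiments, at 2.81, 2.38, 1.72 and 1.96 in ectopic embryos and 3.25, 2.04, 1.87 and 3.03 in mutants, whereas gcm is at 1.85 and -0.63.

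Ectopic gcm and loss of gcm were compared at stage 13 to ask which genes moved in opposite directions with too much and too little of the factor. The ratios came from different arrays and different wild types, the parental pool and OregonR, so strain and gcm cannot be told apart in the difference. Most risen genes did not turn around in mutants. Of 474 risen genes tested in both experiments, 245 were also called higher in mutants, which is 51.7% of the ectopic and 28.6% of the 858 mutant calls, and 3 were called lower. Of all genes tested in both, 7.91% were called higher in mutants and 5.35% lower. In mutants 92.6% had the sign they had in ectopic embryos, against 48.6% of all genes, and their median was 0.72, against -0.02 for all. Of 71 fallen genes 16 were also called lower in mutants (22.5% of the ectopic and 2.75% of the 581 mutant calls) and 0 were called higher.

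The maternal genes were among the shared ones. BigH1 was at 2.81 in ectopic embryos and 3.25 in mutants, smg at 2.38 and 2.04, swa at 1.97 and 2.15, and CycB at 1.79 in both. For 10 of 15 genes of egg activation and RNA clearance the mutant ratio was called higher, and the list median there was 1.44, against 0.55 in ectopic embryos. The matrix genes were low in both, at a median of -0.55 in ectopic embryos and -1.36 in mutants, with 9 of 15 called lower in mutants. The shares of all genes called in mutants were 7.91% higher and 5.35% lower. Markers of maternal RNA and of the matrix moved with perturbed embryos of either kind, and their part in the other differences was not tested.

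**Figure D5:**
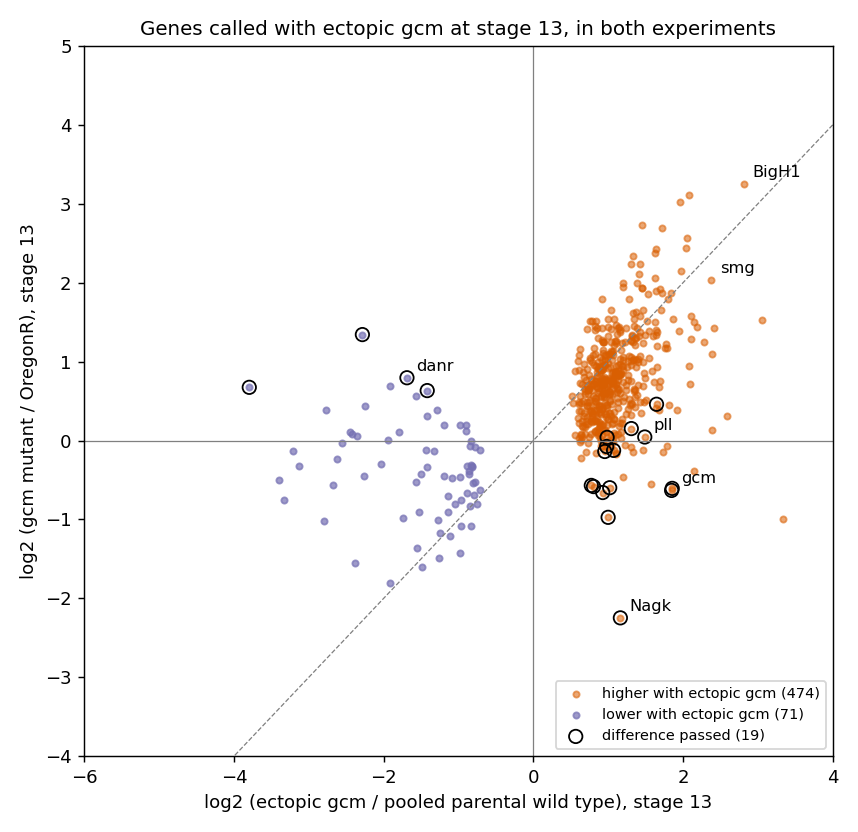
Log2 ratio at stage 13 in ectopic embryos over pooled wild type (x axis) and in gcm mutants over OregonR (y axis) for 545 genes called with ectopic gcm and tested in both. Rings mark the 19 genes whose difference passed, and the dashed line marks equal ratios. Most of the 474 risen genes lie above 0 on both axes, while gcm and Nagk lie below 0 in mutants.

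The difference between the experiments, tested directly, passed for 221 of 20581 probes (1.07%), with 72 higher (0.35%) and 149 lower (0.724%) in ectopic embryos relative to mutants. Of 10851 named genes tested in both experiments, 53 were higher and 69 lower. Most of them had been called in mutants and not in ectopic embryos: 34 of the 53 and 64 of the 69. Genes that rose with ectopic gcm and also passed the difference numbered 15 of 474, and those that fell numbered 4 of 71. The difference contains the ectopic ratio, so the criteria are not independent, and meeting both is no separate evidence. These 15 were gcm, Nagk, pll, Aasdh, CG14805, CG4622, CNPYb, Cbs, Cpr57A, JhI-21, Noc1, Polr1E, Spf45, Ube3a and mbm, and they are listed because they meet both criteria. The 4 were danr, Muc96D, Tim17a2 and CG14120.

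Nagk, which encodes an N-acetylglucosamine kinase, was called in opposite directions. Its log2 ratios were 0.79, 1.89, 1.22 and 0.76 in ectopic embryos, against -0.98, -2.03, -3.95 and -2.02 in mutants. It rose by 1.16 in ectopic embryos (adjusted p = 0.0133) and fell by 2.25 in mutants (adjusted p = 7.8e-07). The difference was 3.41 (adjusted p = 2.5e-06), the highest among called genes measured on all 8 arrays. It stayed called whichever of these arrays was left out. Over development, Nagk was called lower in mutants at all 6 stages, and higher in ectopic embryos at stages 13, 14 and 15. The kinase gene pll was at 1.49 in ectopic embryos and 0.04 in mutants, with a difference of 1.44 (adjusted p = 0.0365). The transcription factor gene danr was at -1.69 in ectopic embryos and 0.80 in mutants, where it did not pass, with a difference of -2.48 (adjusted p = 0.00488).

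The other large differences came from the mutants. CG8112 had -0.22, 0.71, 0.16 and -0.55 in ectopic embryos, against -2.78, -3.52, -3.63 and -1.53 in mutants, a difference of 2.89 (adjusted p = 0.000462). Rab9, a GTPase of endosome traffic, had 1.11, -0.30, 0.16 and 0.30 in ectopic embryos, against -2.64, -2.60, -2.55 and -3.36 in mutants (difference 3.10, adjusted p = 0.00206). Neither CG8112 nor Rab9 passed in ectopic embryos. CG6180 (2.83), Vha36-2 (3.37) and CG7498 (3.28) completed the 6 highest. At the low end were halo, which acts in lipid droplet transport in the early embryo, and yl, the yolk protein receptor of the oocyte. The gene halo had 1.18, 0.20, -3.03 and -1.27 in ectopic embryos, against 3.42, 7.01, 4.31 and 3.69 in mutants (difference -5.34, adjusted p = 0.0112). For yl the ratios were 0.42, 1.61, 0.56 and 1.44 in ectopic embryos, against 3.41, 4.92, 5.31 and 2.04 in mutants (difference -2.91, adjusted p = 0.0119). CG43693 (-3.48), Pxt (-3.01), Fs(2)Ket (-2.75) and BobA (-2.53) were the others.

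The count for this difference depended on the processing. It was 28 probes with arrays left uncentred or scaled to one spread and 0 with only these 8 arrays in the fit, and leaving out 1 array gave 131 (without mutant replicate 2) to 320. It also fell to 135, 139 and 144 without ectopic replicate 1, ectopic replicate 2 or mutant replicate 3.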

How the data were processed

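Labelled cDNA (Cy3 and Cy5) from mRNA of whole embryos was hybridised in pairs to spotted arrays. Per the labels, the authors scanned with ScanArray software 3.1, quantified with GenePix 5.0 and kept arrays on which at least 30% of genes had repeat spots whose log ratios had an SD under 1/3. They deposited a log2 Cy5/Cy3 value for every spot. Background correction and normalization are not given in the sources used here. No intensities were in the file used, so dim or saturated spots could not be filtered, and the number of arrays limits the precision.

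Exact zeros and log2 values of 9 or more in size were set to missing. Values of the 2 spots of a probe were averaged, array medians were set to 0, and the sign was turned where the perturbed sample was Cy3. A least-squares model per probe over all 58 arrays had 14 coefficients for experiment and stage, plus 1 dye term per experiment. Its variances were moderated by limma 3.58.1 (squeezeVar) in R 4.3.3. Fitted ratios allow for dye, so they can differ slightly from array means. Tests were two-sided, with Benjamini-Hochberg adjustment over all tested probes (at least 3 arrays, both orientations) and a threshold of 0.05. The labels speak of independent experiments without naming separate embryo collections, so the spread between arrays may be partly technical. P-values for stage 13 rest on the spread within all 14 groups of the 58 arrays. They do not measure the agreement of the 4 stage 13 arrays, whose own spread alone gave 0 calls. In simulated data for stage 13, the fit recovered 18 of 100 probes given a log2 change of 1 and 60 of 100 given 2. Of the simulated calls 6.02% were false. The simulated noise had the same spread on all arrays and no shifts shared between genes. The real stage 13 arrays differed in spread (scaled median absolute deviation 1.04, 1.10, 0.84 and 0.78 on replicates 1 to 4). The simulated shares therefore do not give the error rate of the real calls.

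Of 23808 probes, 13455 had 1 gene in the supplied platform annotation, 153 several and 10200 none. RefSeq names (Release 6 plus ISO1 MT) were found for 12851 through Entrez identifiers. Where a gene had several probes (1383 genes), the one measured on most arrays stood for it. Genes were named by rule: gcm and gcm2, the 12 highest and 12 lowest called genes with 1 sign on 4 arrays, up to 4 members of each list by adjusted p plus repo and loco, and the 6 highest and 6 lowest called genes of each difference. The 6 highest and 6 lowest were taken from genes measured on all arrays of the groups compared. Other list members, and genes that met 2 criteria, were added after their values were seen. The members and lists were chosen with earlier results of these data known. Alternatives covered centring, scale, dye, the arrays in the fit, a replicate block, filters on missing values and spot pairs, array weights, print blocks, zeros, extreme values and leaving out each array. Plots used matplotlib 3.10.9 under Python 3.11.15.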

Additional observations from a re-analysis of the deposited data

Results flagged for a closer look

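In 9 of 61 genes named for stage 13 and measured on all 4 arrays, 1 array lay far from the other 3, by Dixon's test at the 95% level, which chance meets in about 1 of 20 groups. The far array was replicate 1 in 5 genes, replicate 2 in 1, replicate 3 in 1 and replicate 4 in 2. On replicate 1 the log2 ratio was 0.24 for Glt, 0.31 for Psf1, -4.24 for danr, 0.75 for squ and 1.23 for swa. CG1092 was at -3.84 on replicate 2 and moody at 2.53 on replicate 3. On replicate 4 Dph3 was at -6.72, with its other arrays between -0.29 and -0.02, and Cdc6 was at 1.14.

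By the limma test of the difference at stage 13, 53 named genes were higher and 69 lower in ectopic embryos relative to mutants. The 12 listed here are the highest and lowest of these, among genes measured on all arrays of the groups compared. Ectopic minus mutant on the log2 scale was 3.41 for Nagk, 3.37 for Vha36-2, 3.28 for CG7498, 3.10 for Rab9, 2.89 for CG8112 and 2.83 for CG6180. It was -5.34 for halo, -3.48 for CG43693, -3.01 for Pxt, -2.91 for yl, -2.75 for Fs(2)Ket and -2.53 for BobA. Leaving out 1 of the 8 arrays ended no call for Nagk, Rab9, CG8112, CG6180, CG43693 and Fs(2)Ket. It ended the call in at least 1 such fit for Vha36-2, CG7498, halo, Pxt, yl and BobA. The wild types of the experiments differ, so strain and gcm cannot be told apart here.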

How the results depend on the processing

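No called result changed direction under any alternative that was run. The difference of gcm passed in all leave-one-out fits (1.64 to 2.08) and lost its call with arrays left uncentred (1.89, adjusted p = 0.0603) and with only the 4 stage 13 arrays in the fit (1.85, adjusted p = 0.674). The stage 13 count of 713 probes became 22 uncentred, 0 with only its own arrays, and 1639 of 6199 probes with repeat spots of an SD under 1/3, of which 1111 were higher and 528 lower (67.8% higher, against 81.6%). Leaving out 1 array gave 346 to 786, and without replicate 2 the higher share was 65.6%. Other settings gave 495 to 802. The ectopic minus mutant count of 221 became 28 uncentred (7.14% higher, against 32.6%), 28 with arrays scaled, 0 with only its own arrays, 119 with array weights, 125 with zeros kept and 1017 of 4159 with agreeing spot pairs (57.8% higher). Leaving out 1 array gave 131 to 320, with 19.8% to 54.8% higher. The count of 0 against stages 12 and 14 became 2 with arrays scaled and lay between 0 and 5 in leave-one-out fits. Without replicate 4 of stage 12, its only array with the ectopic sample in Cy5, no probe could be tested. The cause of these changes was not tested, except that with 1 group's arrays alone fewer arrays set the spread. Replicate numbers did not pair arrays: residuals of stage 13 arrays and same-numbered arrays of other groups correlated at -0.153 to 0.163. With the replicate block the stage 13 count was 626, the difference count 195 and gcm 1.91. Leaving out values of 5 or more in size, chosen after seeing the data, gave 771 and 242. Depth is unknown, since the table holds ratios without signal.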

Other observations

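Of 11359 named genes tested, 133 stayed called higher whichever stage 13 array was left out. They held several with known roles in the nucleus, picked here after their values were seen. Among these were genes for nuclear pore proteins. Their log2 ratios were 1.86, 1.78, 1.16 and 0.65 for Nup93-1, 1.08, 1.23, 1.17 and 0.70 for Nup214, and 1.48, 1.09, 1.38 and 1.24 for Elys, which also tethers pores to chromatin. Fitted ratios were 1.47 for Aladin and 1.16 for Mgtor. Agreement between arrays was part of the choice, since each call had to hold without any 1 array. Chromatin proteins in the set were Su(var)3-7 (1.52), a heterochromatin protein, XNP (1.03), the fly ATRX remodeller, Mi-2 (0.96), the remodeller of the NuRD complex, and Kdm5 (0.93), a histone demethylase. The condensin gene SMC2 was at 1.28 and the topoisomerase gene Top1 at 1.20.

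Genes of mitosis and replication outside the lists were also in it. Greatwall kinase, gwl, which holds cells in mitosis by inhibiting a phosphatase, had 1.38, 2.08, 1.57 and 1.52. The replication factor gene Mcm10 had 1.21, 1.75, 2.50 and 2.01, and the checkpoint gene Bub3 had 1.34, 1.35, 1.08 and 0.65. Stat92E, the transcription factor of the JAK/STAT pathway, was at 0.94. No test of these groups was made, and their members outside the set were not counted. By chromosome arm, the share of genes called higher was 4.54% on 2L, 3.89% on 2R, 3.97% on 3L, 4.28% on 3R, 3.64% on 4 and 5.12% on X.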
